A study of Mus musculus with 6 samples.

Results

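The Mir130b and Mir301b hairpins are neighbouring microRNA (miRNA) genes of the mouse, and both arms of each were read in this study, giving 4 mature miRNAs: mmu-miR-130b-5p, mmu-miR-130b-3p, mmu-miR-301b-5p and mmu-miR-301b-3p. They were taken by their row names alone and are 4 of the 49 mature miRNAs in the table analysed here. The study sequenced small RNA of the established mouse myoblast line C2C12 and compared 3 wild-type (WT) libraries with 3 libraries labelled MSTN-KO. The MSTN-KO cells had been electroporated with a CRISPR/Cas9 plasmid on the px330 backbone whose guide was directed at the myostatin gene, and both groups were grown in serum-containing basal medium. The edited cells are a single edited line, C11, so that an effect of genotype and a property of that line cannot be told apart. The strain entry of the labels reads C11 for all 6 libraries, the WT ones included, so the groups rest on titles and genotype entries. The myostatin transcript was not measured here, so no value in these data checks which libraries are WT and which are edited. WT and MSTN-KO below mean the libraries so labelled, and the direction of every difference rests on those labels. If the labels of the groups were exchanged, each sign would turn and each size would stay. The labels do not say that the 3 libraries of a group came from separate cultures. All p-values thus measure the spread between these libraries, which may be technical. Of 6 miRNAs typical of skeletal muscle, 6 of 6 were listed. In every listed miRNA the groups were separate, so being listed does not check the labelled cell type. None of the marker miRNAs looked for of liver, neurons, blood cells, endothelium and epithelium is among the 49, and their levels were not analysed here. As the list is a selection, this does not check the cell type either.

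A miRNA gene is transcribed as part of a longer RNA from which Drosha and Dicer cut a short duplex. The strand from the 5' side of the hairpin is called 5p and the one from the 3' side 3p. Usually an Argonaute protein keeps mainly 1 strand of the duplex, and the loaded strand recognises messenger RNAs chiefly through its seed, bases 2 to 8. miR-130b-3p and miR-301b-3p belong to the miR-130 and miR-301 family, whose members share a seed and are known as regulators of proliferation and of TGF-beta signalling. Myostatin, a secreted protein of the TGF-beta superfamily, restrains the growth of skeletal muscle.

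The sequences show what distinguishes the arms that were counted separately. The mature sequences below are from RefSeq (GRCm38.p6, minus strand of chromosome 16), 5' to 3', with the seed in capitals, and 3 of the 4 members had an entry.
miR-130b-5p (chr16:17124109-17124130): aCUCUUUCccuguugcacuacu
miR-301b-5p (chr16:17124456-17124477): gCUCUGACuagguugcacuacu
miR-130b-3p (chr16:17124071-17124092): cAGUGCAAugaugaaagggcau

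Both 5p arms are 22 bases long and identical at 16 of 22 positions. They end in the same 11 bases, positions 12 to 22, but their seeds, CUCUUUC and CUCUGAC, differ. The seed of miR-130b-3p, AGUGCAA, is found in 7 of the 1679 mature miRNAs of the RefSeq table. Its reverse complement UUGCACU lies at positions 13 to 19 of each 5p arm, and 9 of the 1679 mature miRNAs hold those letters. The best known family members with this seed are shown to place miR-130b-3p among them.
miR-130a-3p: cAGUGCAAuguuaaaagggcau
miR-301a-3p: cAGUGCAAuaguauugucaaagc

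None of the other family members of the table with that seed (miR-130a-3p, miR-130c, miR-301a-3p, miR-721, miR-6341 and miR-6389) is among the 49 listed miRNAs, and they were not analysed here. The seed CUCUGAC is shared with miR-301a-5p and CUCUUUC with miR-7014-3p, neither of them listed. miR-301b-3p had no sequence entry, so its runs shared with other miRNAs were not searched. Among the other 3 arms, the longest run shared with a mature miRNA outside the cluster was 10 to 12 bases. With a listed miRNA outside the cluster it was at most 8 bases, where a sequence was at hand (32 of the 49 listed, 3 of them members). How the authors' counting assigned reads that match several mature miRNAs is not given in the sources used here.

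The hairpins are shown to place the arms, which are in capitals.
Mir301b (chr16:17124400-17124496): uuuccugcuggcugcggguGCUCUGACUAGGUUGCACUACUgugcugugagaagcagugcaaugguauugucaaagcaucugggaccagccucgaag
Mir130b (chr16:17124061-17124142): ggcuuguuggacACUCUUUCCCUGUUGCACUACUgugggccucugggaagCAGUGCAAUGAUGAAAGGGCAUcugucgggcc

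Mir301b comes first in the direction of transcription, and 257 bases separate the hairpins. The letters AGUGCAA occur once in each hairpin, at positions 52 to 58 of Mir130b and 56 to 62 of Mir301b. In GENCODE M21 both hairpins lie in intron 1 of 2610318N02Rik on the same strand, 493 (Mir301b) and 847 (Mir130b) bases beyond the end of exon 1. The host transcript was not measured here.

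**Figure D1:**
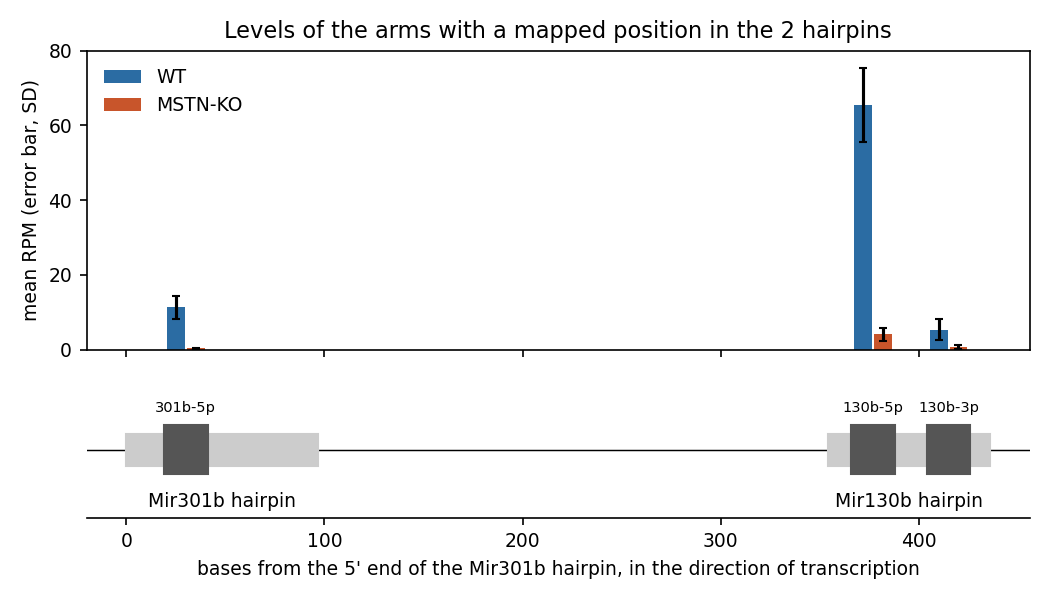
Mean RPM (reads per 1000000 library reads, upper panel; bars, WT and MSTN-KO; error bars, SD, n = 3 libraries each) of the 3 arms with a RefSeq position, drawn over the hairpins (lower panel, bases from the 5' end of Mir301b). miR-130b-5p in the second hairpin is the tallest bar, at 65.4 RPM in the WT group, and each MSTN-KO bar is lower than its WT bar.

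By the labels, all 4 arms were lower in MSTN-KO than in WT libraries. Together they gave 71.8, 100.6 and 82.0 RPM in WT replicates 1 to 3 and 3.82, 5.87 and 5.97 RPM in MSTN-KO replicates 1 to 3. The lowest WT library was 12.03 times the highest MSTN-KO library, and the MSTN-KO mean, 5.22 ± 1.21 RPM, was 6.15% of the WT mean of 84.8 ± 14.6 RPM (SD, n = 3). The log2 of the summed RPM, with nothing added, differed by -4.04 (MSTN-KO minus WT). The exact two-sided permutation p was 0.1, the smallest that 3 against 3 libraries allow. RNA came from whole cultures, in which fewer cells expressing a miRNA and less of it per cell cannot be told apart.

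The depth behind these sums was 466, 691 and 969 reads in the WT libraries and 21, 56 and 52 reads in the MSTN-KO libraries, of 5502214 to 11823489 reads per library. A library shows a miRNA with 3 reads or more from 0.254 to 0.545 RPM upward. The reads carry no molecular identifiers and are not independent molecules. This floor and the intervals on reads therefore cover counting error only.

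The level was carried by miR-130b-5p, the 5p arm of Mir130b. It measured 59.4, 76.9 and 60.05 RPM in WT replicates 1 to 3 (385, 528 and 710 reads) and 2.18, 4.71 and 5.40 RPM in MSTN-KO replicates 1 to 3 (12, 45 and 47 reads). The groups were far apart, and MSTN-KO replicate 1 was the lowest library. The mean fell from 65.4 ± 9.94 to 4.10 ± 1.69 RPM (SD, n = 3), with a limma log2 fold change of -3.76 on the log2(RPM + 1) scale (SE 0.28, adjusted p = 3.1e-06). Among the 49 listed miRNAs its rank by RPM went from 11, 11 and 12 in the WT libraries to 32, 28 and 24 in the MSTN-KO libraries.

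miR-301b-5p, the 5p arm of Mir301b, was the second most abundant member in every WT library. It measured 7.86, 13.1 and 13.2 RPM in WT replicates 1 to 3 (51, 90 and 156 reads). In MSTN-KO replicates 1 to 3 it measured 0.182, 0.210 and 0.574 RPM, on 1, 2 and 5 reads. It thus stayed under the floor of 3 reads in MSTN-KO replicates 1 and 2, whereas the WT mean level would have given 62.7 and 109 reads there. It fell with a limma log2 fold change of -3.21 (SE 0.25, adjusted p = 3.1e-06).

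miR-130b-3p, the arm with the family seed AGUGCAA, gave fewer reads than miR-130b-5p in every library. It measured 2.77, 8.30 and 4.82 RPM in WT replicates 1 to 3 (18, 57 and 57 reads) and 0.909, 0.943 and 0 RPM in MSTN-KO replicates 1 to 3 (5, 9 and 0 reads). The WT libraries spread more than for the other arms relative to their mean (5.30 ± 2.79 RPM, SD, n = 3), and all were above the MSTN-KO libraries. Where MSTN-KO replicate 3 had no read, the WT mean level would have given 46.2 reads. In limma its log2 fold change was -1.93 (SE 0.37) at an adjusted p of 0.000857.

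miR-301b-3p was the least abundant member in the WT libraries. It measured 1.85, 2.33 and 3.89 RPM in WT replicates 1 to 3 (12, 16 and 46 reads) and 0.545, 0 and 0 RPM in MSTN-KO replicates 1 to 3 (3, 0 and 0 reads). At the WT mean of 2.69 RPM the MSTN-KO libraries would have given 14.8, 25.7 and 23.4 reads, against the 3, 0 and 0 seen. Its log2 fold change by limma came to -1.64 (SE 0.27), with an adjusted p of 0.000395.

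**Figure D2:**
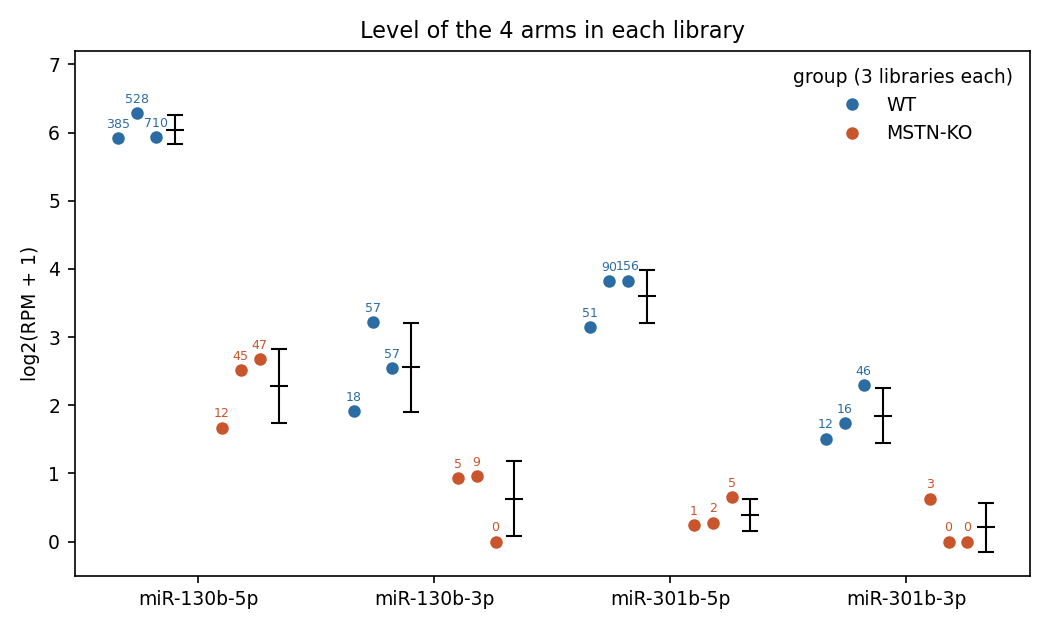
Level of each arm in each library as log2(RPM + 1) (points, in order of replicate number; the number at a point is its reads; bars, group mean and SD, n = 3). No MSTN-KO point reaches a WT point of the same arm, and the lowest MSTN-KO points, at 0, are miR-130b-3p in replicate 3 and miR-301b-3p in replicates 2 and 3.

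The order of the arms, miR-130b-5p, miR-301b-5p, miR-130b-3p and miR-301b-3p, was the same in all 3 WT libraries. Only miR-130b-5p stood clear of the rest there. The range of miR-301b-5p met that of miR-130b-3p at 7.86 to 8.30 RPM, and the range of miR-130b-3p overlapped that of miR-301b-3p at 2.77 to 3.89 RPM. In the MSTN-KO libraries miR-130b-5p was again first in 3 of 3, and the other arms had at most 9 reads each and changed places between libraries.

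By these values 4 of 4 arms were lower at an adjusted p under 0.05 in limma, against 71.4% (35 of 49) of the listed miRNAs. With the study's cut-offs, an unadjusted p under 0.05 and a log2 fold change below -1, 4 of 4 arms passed, against 57.1% (28 of 49). The groups did not overlap in 4 of 4 arms, and 71.4% of the listed miRNAs were lower without overlap. The 49 miRNAs are a selection from each library, and in all 49 the groups were separate, so a call within this list is not independent evidence of a change. On the log2(RPM + 1) scale the median log2 fold change was -2.57 over the 4 arms and -1.07 over all 49. From the largest fall on that scale, the arms ranked 3 (miR-130b-5p), 5 (miR-301b-5p), 9 (miR-130b-3p) and 11 (miR-301b-3p). That scale compresses low arms, and the order of the falls depends on it. By the ratio of WT to MSTN-KO means, miR-301b-5p fell most of all 49, at 35.4, ahead of miR-1a-3p at 32.8. By that ratio miR-130b-5p came next among the arms, then miR-301b-3p at 14.8 and miR-130b-3p at 8.59.

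**Figure D3:**
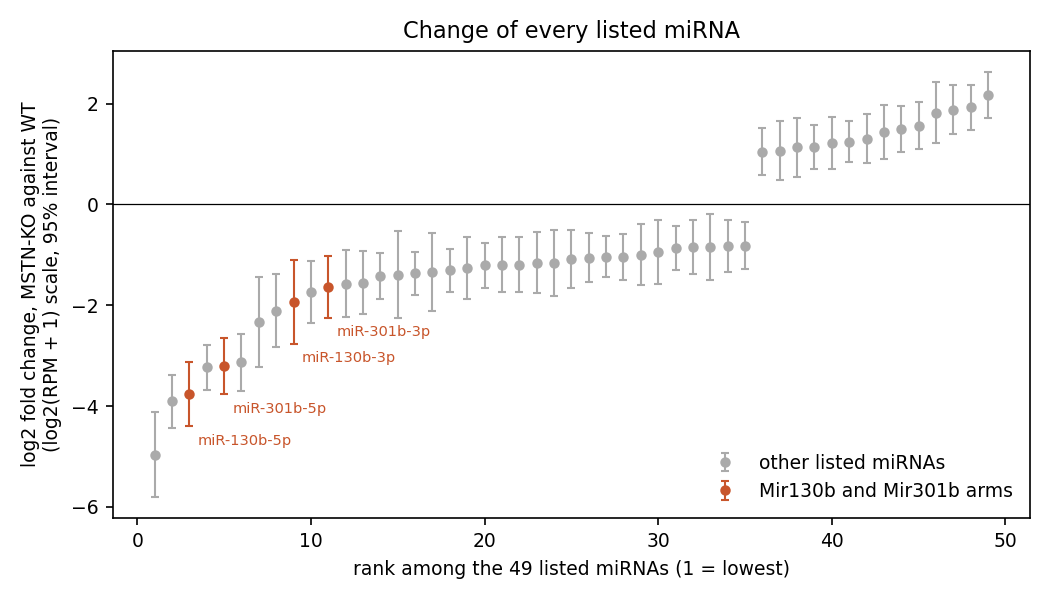
Log2 fold change of the 49 listed miRNAs in MSTN-KO against WT, ranked, on the log2(RPM + 1) scale (points; bars, 95% limma interval; arms of Mir130b and Mir301b coloured). The 4 arms lie between -3.76 and -1.64, within the 11 lowest ranks.

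The muscle miRNAs differed in the same direction between the labelled groups. By the deposited RPM, all 6 of the muscle list (miR-1a-3p, miR-133a-3p, miR-133b-3p, miR-206-3p, miR-486a-5p and miR-499-5p) were lower, with a median log2 fold change of -1.45. Their summed level was 18977 to 32560 RPM in the WT libraries and 6319 to 11068 RPM in the MSTN-KO libraries, and their part in the fall of the cluster was not tested. Most of that sum was miR-206-3p, at 18322 to 31551 RPM in the WT libraries and 6143 to 10766 RPM in the MSTN-KO libraries. Because miR-206-3p makes up most of the listed reads, scaling to the listed total asks mainly how far the cluster fell relative to miR-206-3p. Per listed RPM the cluster took 0.264%, 0.290% and 0.389% in WT replicates 1 to 3 and 0.0494%, 0.0466% and 0.0579% in MSTN-KO replicates 1 to 3, again without overlap.

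Rescaling to the listed total, by median of ratios or by quantile normalization used only the 49 listed miRNAs. In all of these the groups were separate, so its shifts cannot be told apart from the selection of the list. Such rescaling raised the median log2 fold change of all 49 by 1.23 (listed total), 0.99 (median of ratios) or 0.92 (quantile normalization), and it changed calls of the 3p arms but of neither 5p arm. miR-130b-5p still fell, with a log2 fold change of -2.47, -2.74 and -2.87 in that order (limma adjusted p = 5.61e-05, 1.06e-05 and 0.00037). miR-301b-5p did so as well, at -2.37, -2.55 and -2.39 (adjusted p = 0.000114, 1.06e-05 and 0.00166). miR-130b-3p was called by median of ratios alone (-1.27, adjusted p = 0.0176), with -1.09 by listed total (adjusted p = 0.0569) and -1.10 by quantile normalization (adjusted p = 0.0653). miR-301b-3p missed the threshold by listed total (-1.02, adjusted p = 0.0535) and passed by the other rescalings (-1.15 and -0.83, adjusted p = 0.00948 and 0.0389). The split of all 49 calls at an adjusted p under 0.05 went from 35 lower and 14 higher to 10 lower and 14 higher by listed total, and to 12 and 14 by each of the others. Of the muscle list, miR-1a-3p was called lower by every rescaling, and miR-499-5p by listed total and median of ratios. No rescaling called miR-133a-3p, miR-133b-3p, miR-206-3p or miR-486a-5p. Their log2 fold changes by listed total were 0.07, 0.27, -0.12 and 0.27.

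By reads, the 5p arm led in both hairpins in the WT libraries. It held 95.5%, 90.3% and 92.6% of the Mir130b reads in WT replicates 1 to 3, on 403, 585 and 767 reads. In MSTN-KO replicates 1 to 3 it held 70.6% (95% Wilson interval 46.9 to 86.7, 17 reads), 83.3% (71.3 to 91.0, 54 reads) and 100% (92.4 to 100, 47 reads). The MSTN-KO shares lay on both sides of the WT shares. The means, 92.8% ± 2.65 and 84.6% ± 14.7 (SD, n = 3), differed by -8.15 percentage points (exact two-sided permutation p = 0.5), and by -1.12 points without MSTN-KO replicate 1 or -15.8 points without MSTN-KO replicate 3.

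For Mir301b the 5p arm held 81.0%, 84.9% and 77.2% of 63, 106 and 202 reads in WT replicates 1 to 3. The MSTN-KO libraries had 4, 2 and 5 reads of this hairpin, with a 5p share of 25.0% (4.56 to 69.9), 100% (34.2 to 100) and 100% (56.6 to 100). A shift in arm use was therefore not detectable at this depth. The difference of the means was -6.03 points (exact permutation p = 1.0) and turned to 18.97 points without MSTN-KO replicate 1.

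Both arms were also listed for 8 other hairpins. The 5p arm led in 2 of them (Mir139 and Mir486a) and the 3p arm in 6 (Mir133a, Mir133b, Mir148a, Mir193b, Mir206 and Mir335), and the leading arm was the same in every library for all 8. Their mean 5p shares shifted by 0.014 to 5.30 points between the groups. Mir133a moved most, from 5.67% to 0.364%, while Mir139 stayed at 96.1% and 96.2%. Of the 10 hairpins, Mir301b alone had a library with another leading arm, MSTN-KO replicate 1, on 1 read of the 5p arm and 3 of the 3p arm.

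**Figure D4:**
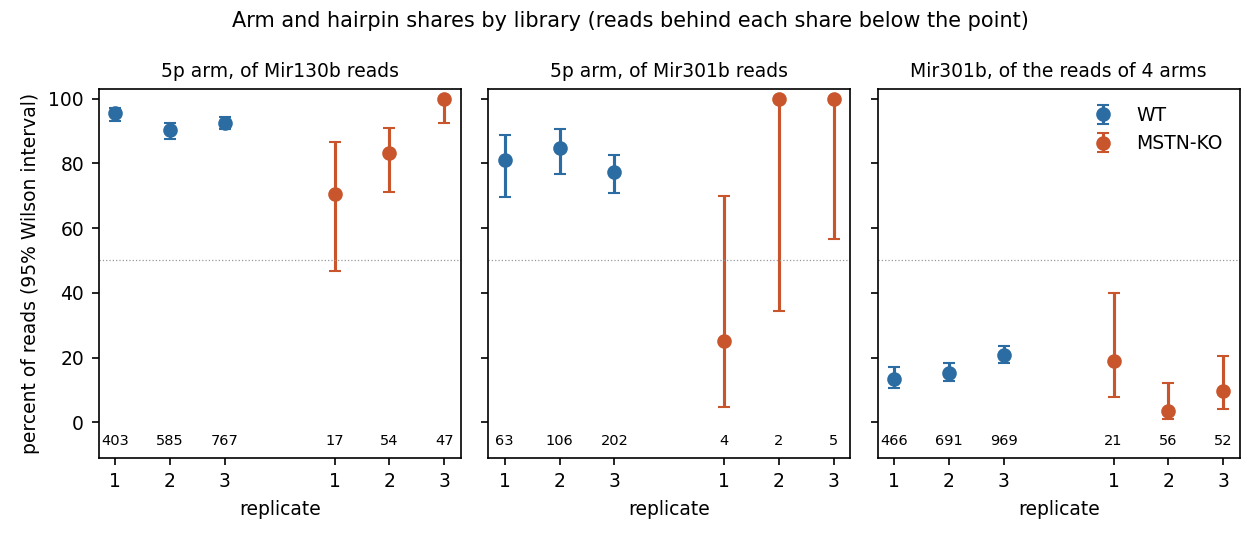
Share of reads from the 5p arm of Mir130b (left), from the 5p arm of Mir301b (middle) and from Mir301b among the reads of the 4 arms (right), per library with 95% Wilson intervals (the reads behind a share are printed under it). The WT shares are narrow, and the MSTN-KO intervals of Mir301b, on 2 to 5 reads, span most of the axis.

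Whether the arms of a hairpin fell by unequal amounts depended on the scale. On the log2(RPM + 1) scale the 5p minus 3p difference of Mir130b was 3.999, 3.07 and 3.39 in WT replicates 1 to 3 and 0.74, 1.56 and 2.68 in MSTN-KO replicates 1 to 3. For Mir301b it was 1.64, 2.08 and 1.54, then -0.39, 0.27 and 0.65. On this scale the change of the 5p arm minus that of the 3p arm was -1.83 for Mir130b and -1.57 for Mir301b, each with an exact permutation p of 0.1, the smallest possible. A pseudocount of 1 RPM compresses a low arm more than a high one, and with 0.1 RPM the differences shrank to -0.67 and -1.01.

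Pooled reads carry no pseudocount. Over the 3 libraries of a group and relative to their totals, miR-130b-5p went from 1623 to 104 reads, a ratio of 14.7 (95% interval 12.1 to 18.1), and miR-130b-3p from 132 to 14 reads, a ratio of 8.90 (5.12 to 16.7). miR-301b-5p went from 297 to 8 reads, a ratio of 35.0 (17.5 to 81.9), and miR-301b-3p from 74 to 3 reads, a ratio of 23.3 (7.66 to 115.4). The intervals of the arms of a hairpin overlapped, but overlap is no test of a difference. Unequal falls of 5p and 3p were not tested in the pooled reads. These ratios compare the libraries, and their intervals leave out the spread between libraries.

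**Figure D5:**
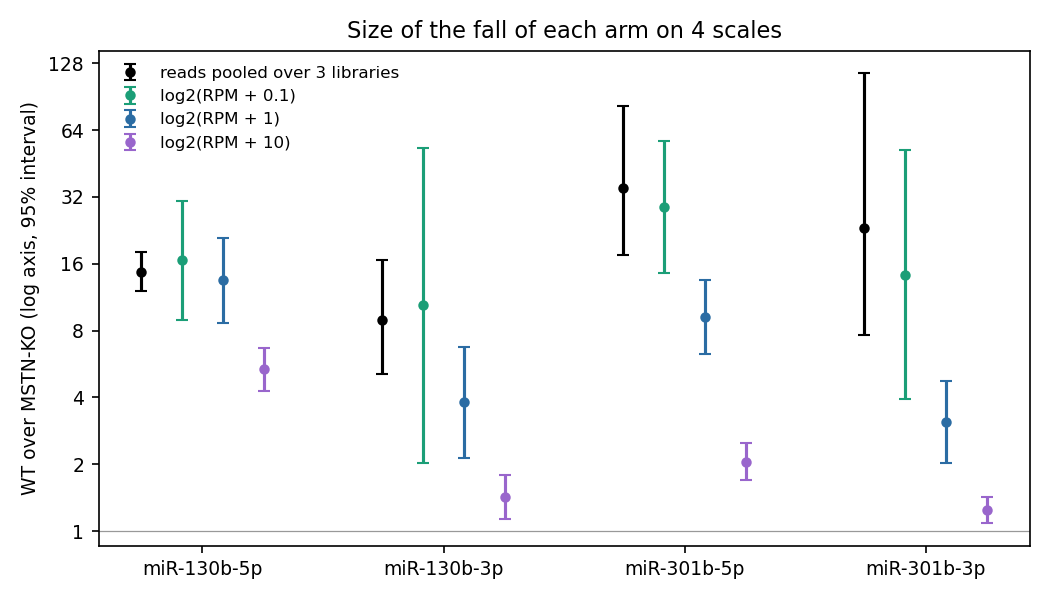
WT over MSTN-KO for each arm (log axis) from reads pooled over 3 libraries (exact 95% interval, counting error only) and from limma on log2 of RPM plus 0.1, 1 or 10 (95% interval). With a pseudocount of 10 the estimates shrink most for the low arms, to 1.24 for miR-301b-3p against 23.3 in pooled reads.

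The hairpins were compared in the same way. Mir130b, as the sum of its arms, averaged 70.7 ± 12.6 RPM in WT and 4.71 ± 1.41 RPM in MSTN-KO libraries (SD, n = 3), 15.0-fold apart. Mir301b had 14.1 ± 3.87 and 0.504 ± 0.266 RPM, 28.0-fold apart. In pooled reads the ratios were 14.0 (11.6 to 17.1) and 31.8 (17.6 to 64.3), with intervals that do not overlap. Between libraries the difference was not resolved. Mir301b took 13.5%, 15.3% and 20.8% of the cluster reads in WT replicates 1 to 3 and 19.0%, 3.57% and 9.62% in MSTN-KO replicates 1 to 3, on 4, 2 and 5 reads of Mir301b (difference of means -5.82 points, exact permutation p = 0.3).

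The listed miRNAs whose pattern over the 6 libraries was most like that of the summed cluster were found by the root-mean-square (RMS) difference of log2(RPM + 1) profiles, each centred on its mean. miR-148a-3p was nearest, at an RMS difference of 0.241, with 401 ± 62.0 RPM in WT and 26.1 ± 6.51 RPM in MSTN-KO libraries (SD, n = 3). Next came both arms of Mir335, miR-335-3p at 0.398 and miR-335-5p at 0.596. miR-1a-3p of the muscle list followed at 0.694 and miR-133b-5p at 0.867. Within the cluster, miR-130b-5p was at 0.151, miR-301b-5p at 0.356, miR-130b-3p at 1.05 and miR-301b-3p at 1.17. miR-148a-3p was thus nearer to the sum than miR-301b-5p was. Both 3p arms were farther from the sum than every miRNA outside the cluster named above. This scale compresses low arms, so the distances also depend on level. By the ratio of WT to MSTN-KO means, miR-301b-3p was at 14.8, miR-130b-3p at 8.59 and the sum at 16.3. The sum is mostly miR-130b-5p, and all listed profiles share the group difference on which the list rests.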

How the data were processed

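Small RNA libraries of 3 WT and 3 MSTN-KO C2C12 samples were grouped by their titles and genotype entries. The authors deposited RPM values, 1 per mature miRNA and library, and per the labels' processing notes Bowtie 0.12.2 and mm8 were used, with no role given. The article names its values FPKM, but 100% of the deposited RPM values above 0 were whole multiples (within 0.01) of a single step per library, taken as the worth of 1 read. Reads and library totals were derived from that step. The counting tool and miRNA catalogue are not given in the sources used here, and miRNAs outside the 49 listed were not analysed here.

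RPM values were tested two-sided as log2(RPM + 1) in R 4.3.3, with lmFit and eBayes of limma 3.58.1, over all 6 libraries with no covariate. miRNAs reaching 1 RPM in at least 1 library were tested (all 49), with Benjamini-Hochberg adjustment over the 49. This scale understates the change of low miRNAs. Exact two-sided permutation tests (scipy 1.17.1), which reach 0.1 at the lowest, were used for sums and shares. The limma step was tested on simulated data. Shares carry 95% Wilson intervals, and ratios of pooled reads carry exact conditional intervals. Chi-square tests between libraries of a group gave at least 456 on 47 degrees of freedom, above sampling noise, and each library was counted once.

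The members and lists were chosen with earlier results of these data known. miRNAs were named by a rule that takes the 4 arms, listed miRNAs with the seed of a member, the 5 listed profiles nearest to the sum, hairpins with both arms listed, and the muscle list. Alternatives were omission of each library, the replicate block, a trend of variance on the mean, 3 rescalings, no filter or a minimum mean of 10 RPM, and pseudocounts of 0.1 or 10. Deposited values carry no coordinates, and those printed are of GRCm38.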

Additional observations from a re-analysis of the deposited data

How the results depend on the processing

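Without a filter the same miRNAs were tested and the values were those of the main test, so this setting was not counted. All 53 values obtained for single arms under the other alternatives were negative. Of these, 50 stayed on the same side of the adjusted threshold, including 24 of 24 with a library left out. The 3 that lost the call were miR-130b-3p by listed total (-1.09, adjusted p = 0.0569) and quantile normalization (-1.10, adjusted p = 0.0653) and miR-301b-3p by listed total (-1.02, adjusted p = 0.0535). The cause was not tested. The number of arms lower at an adjusted p under 0.05 went from 4 to 2 by listed total. A mean of at least 10 RPM left only miR-130b-5p in the test and gave no value for the other arms, so that 1 arm was called by either cut-off. With a pseudocount of 10, 2 arms passed the log2 fold change cut-off. The summed cluster differed by -2.90 by median of ratios and -2.60 by listed total. The 5p against 3p differences in change were -0.67 (Mir130b) and -1.01 (Mir301b) with a pseudocount of 0.1, and -0.73 (Mir301b) with 10.

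Over all alternatives the log2 fold change ran from -4.05 to -2.42 for miR-130b-5p, from -3.38 to -0.51 for miR-130b-3p, from -4.85 to -1.04 for miR-301b-5p and from -3.84 to -0.31 for miR-301b-3p. Leaving out 1 library moved the difference in 5p share from -15.8 to -1.12 points for Mir130b and from -18.5 to 18.97 points for Mir301b, and that in the Mir301b share from -9.98 to -2.24 points. Deviations from the group mean over the listed miRNAs correlated at 0.0047, 0.223 and 0.056 between same-numbered libraries. Differently numbered WT and MSTN-KO libraries gave -0.285 to 0.172. These values do not settle whether same-numbered libraries were paired. With the replicate block the log2 fold changes were -3.76, -1.93, -3.21 and -1.64 (limma adjusted p = 9.18e-05, 0.00259, 9.18e-05 and 0.00295 for miR-130b-5p, miR-130b-3p, miR-301b-5p and miR-301b-3p), and 4 arms were called as before. Depth limits the 3p arms and Mir301b in the MSTN-KO libraries, which had 0 to 9 reads per arm there.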

Other observations

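Letters that pair with the seed of miR-130b-3p, TTGCACT as the reverse complement of AGUGCAA, were looked for in the longest annotated 3' untranslated region (GENCODE M21) of 5 genes named in the study's miRNA network. No match was found in Tgfb1 (135 bases), Fos (815), Rb1 (1709), Id2 (785) or Epdr1 (1446). Over all genes, 2099 of 21020 untranslated regions (9.99%) hold these letters. Among regions within 10% of the same length the share was 0.186% for Tgfb1, 9.19% for Fos, 11.6% for Rb1, 8.53% for Id2 and 11.7% for Epdr1. No match says only that these letters are not in this window, and the levels of these transcripts were not measured here.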
